A study of Bos taurus with 6 samples.

Results

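The genes described here build the axoneme, the microtubule core of the sperm tail and of motile cilia: axonemal dynein chains, the factors that assemble dyneins, radial spoke proteins, tektins, and the cilia and flagella associated proteins (CFAP). The rule takes every entry of the gene table whose symbol starts with CFAP, DNAH, DNAI, DNAL, DNAAF, RSPH, DRC or TEKT followed by a digit or the letter I, together with SPAG6, SPAG16, SPAG17, SPEF1 and SPEF2. It found 68 entries with 67 symbols among the 47249 genes of the table, because DNAH3 is listed as 2 neighbouring entries. No entry carried the symbol SPAG16, which was not analysed here. The rule reads symbols and no expression value. Counts by role cover these entries only, and axoneme genes under other symbols are given separately.

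The libraries are labelled as testes of untreated Wandong cattle (Bos taurus): 3 calves, immature at 3 months of age, and 3 bulls, mature at 3 years. Each library came from 1 animal, held total RNA depleted of ribosomal RNA, and was sequenced by a strand-specific protocol. Calf 1, calf 2, calf 3, bull 1, bull 2 and bull 3 are the names in the labels. The values are FPKM, fragments scaled to transcript length and to the size of the library, so levels can be set side by side between genes per length.

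The axoneme bends because dynein heavy chains, the ATP-driven motors on each doublet microtubule, walk along the neighbouring doublet. Outer arms set beat frequency, inner arms shape the bend, and radial spokes, the nexin-dynein regulatory complex and the central apparatus pass signals between the centre and the arms. In the testis the axoneme is built in spermatids after meiosis, so a testis without spermatids lacks the cells that assemble sperm tails.

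Markers of spermatids and of spermatocytes separated the groups, whereas marker levels in calf 3 went against its label. The 10 listed markers of spermatocytes summed to 13.6 to 34.4 FPKM in the calves and 402 to 440 in the bulls. The separation was thus not particular to spermatids. The 9 listed markers of round spermatids summed to 6.38 to 6.50 FPKM in the calves and 736 to 825 in the bulls, and the 9 markers of elongating spermatids to 2.98 to 4.06 and 14085 to 15962. In the library labelled calf 3, the 6 markers of oligodendrocytes summed to 13017 FPKM, against 28.6 and 29.4 in calf 1 and calf 2 and 19.7 to 23.8 in the bulls, and all 6 were highest in calf 3. Markers of Leydig cells summed to 0.502 FPKM in calf 3, against 1431 and 1169 in the other calves. The number of axoneme entries called and their median difference are therefore given with and without calf 3. For single genes, differences without calf 3 are given only for DNAL1 and RSPH14. All other single differences include calf 3. Some of these were smaller without it, as for SPAG6, DNAI2 and DNAAF1, and some larger, as for RSPH1, RSPH9 and CFAP36. In bulk tissue, fewer cells of a type and less RNA per cell cannot be told apart.

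Axoneme genes were at low level in every calf library and at high level in every bull library. The median of the 68 entries was 0.788, 1.07 and 0.718 FPKM in the calves (always in the order 1, 2, 3), and 18.3, 18.1 and 17.8 FPKM in the bulls. Their summed level was 138, 172 and 194 FPKM in the calves and 3011, 3057 and 2901 FPKM in the bulls. The 3 bulls lay close together and far from all calves. As a share of all FPKM in the table, the entries took 0.0130%, 0.0156% and 0.0331% in the calves and 0.388%, 0.397% and 0.396% in the bulls. In the calves, 3, 4 and 4 entries reached 10 FPKM, and 47 entries did so in all 3 bulls.

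**Figure D1:**
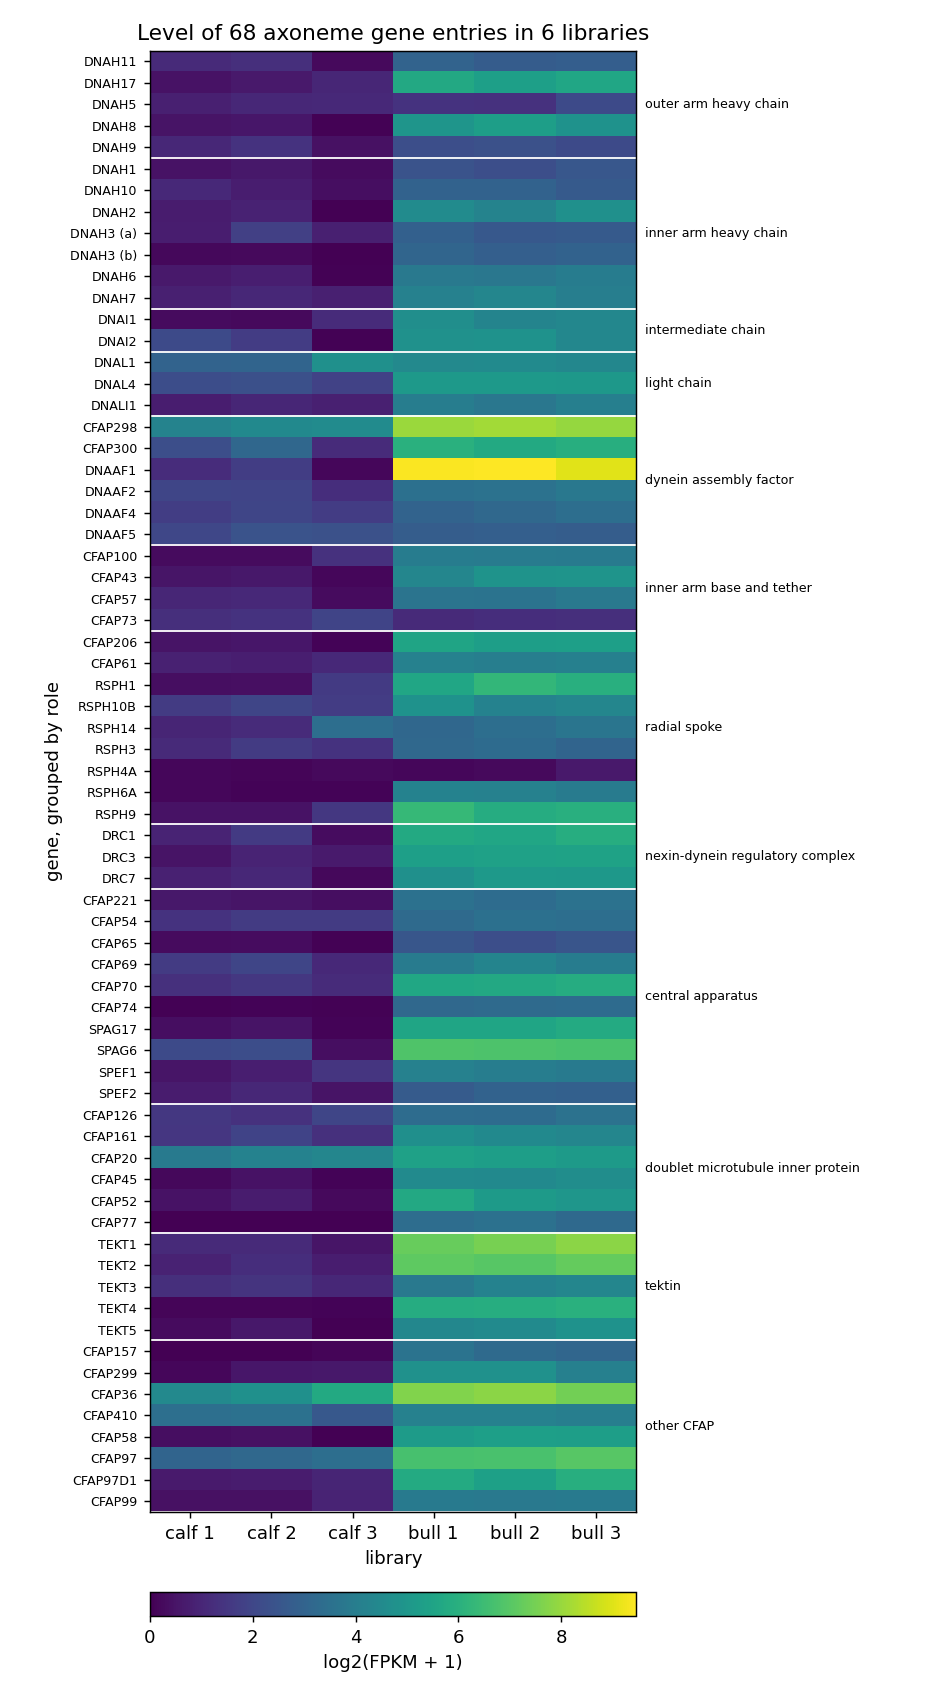
Level of each of the 68 entries (rows, grouped by role) in the 6 libraries (columns), as log2(FPKM + 1) by colour; DNAH3 (a) and (b) are the 2 entries of that symbol. The 3 bull columns are alike and brighter than the calf columns for most rows, with DNAAF1 the brightest, while RSPH4A, CFAP73 and DNAH5 stay dark in all libraries.

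Of the 67 entries that passed the filter (1 FPKM or more in 3 or more of the 6 libraries), 61 were called higher in bulls and none lower, against a background of 35.7% of the 18115 genes tested called higher and 9.61% called lower. A call needed a limma adjusted p below 0.05, with Benjamini-Hochberg adjustment over all genes tested, and a fold change of at least 1 on the log2 scale in size. None was lower at an unadjusted p below 0.05 either. All 67 entries had 1 FPKM or more in every bull, but only 27 in both calf 1 and calf 2. Most could thus not have passed the filter on the calves alone, which limits what the absence of lower calls can show. With no filter, 61 of the 68 entries were called higher and 0 lower, beside 15.6% and 3.54% of all genes in that fit. The 6 entries not called were CFAP410, CFAP73, DNAAF5, DNAH5, DNAL1 and RSPH14, and RSPH4A did not pass the filter. In 64 of the 68 entries all bulls lay above all calves, beside 46.1% of the genes tested, and the groups overlapped in CFAP73, DNAL1, RSPH14 and RSPH4A.

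The median difference of the entries, bulls minus calves on log2(FPKM + 1), was 3.27, with quartiles of 2.12 and 4.35, beside a median of 0.43 over all genes tested. Adding 1 to each FPKM understates the fold change of genes with low levels. A difference of at least 2 was found in 51 entries and of at least 4 in 22 entries, beside 19.1% and 4.90% of all genes tested. Without calf 3, 63 of the 67 were called higher and none lower, with a median of 3.23 and a background of 37.9% higher and 13.6% lower. The scale of the table mattered for the smallest differences. After quantile normalization, which moved the median of all genes to −0.26 and the background to 21.1% higher and 25.1% lower, 57 entries were called higher with a median of 2.49, and CFAP73 was called lower.

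**Figure D2:**
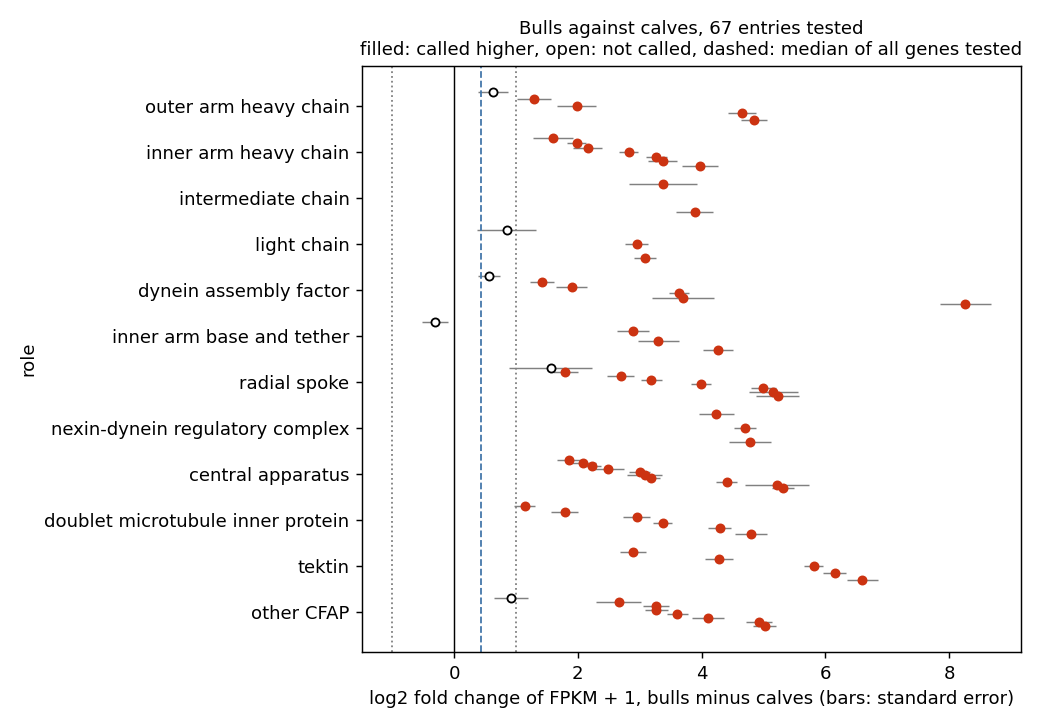
Difference between bulls and calves on log2(FPKM + 1) for the 67 entries tested, grouped by role, with standard errors as bars; filled points were called higher, open points were not called, the dashed line marks the median of all genes tested, and dotted lines mark a difference of 1 in either direction. Tektins reach from 2.89 to 6.60, DNAAF1 lies at 8.26, and CFAP73 is the only point below 0.

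Of the 5 outer arm heavy chains, 4 were called higher in bulls, and 2 of these stood at far higher levels than the rest. DNAH17 and DNAH8 are known as the outer arm chains of sperm, and DNAH5, DNAH9 and DNAH11 as those of airway cilia. DNAH17 (chromosome 19, 53691404 to 53810899) measured 0.391, 0.570 and 1.02 FPKM in the calves and 51.4, 39.9 and 47.6 FPKM in the bulls. DNAH8 measured 0.404, 0.474 and 0.0286 FPKM in the calves and 29.7, 38.1 and 27.3 FPKM in the bulls. No calf came near a bull in either gene. DNAH17 rose by 4.84 ± 0.21 (SE, n = 3 per group) on the log2 scale, with a limma adjusted p of 1.53e-05, and DNAH8 by 4.65 ± 0.23, with an adjusted p of 2.42e-05.

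DNAH11 measured 1.21, 1.40 and 0.187 FPKM in the calves and 7.17, 5.73 and 6.04 FPKM in the bulls. DNAH9 measured 1.09, 1.60 and 0.347 FPKM in the calves and 3.87, 4.03 and 3.39 FPKM in the bulls. Both were called higher, DNAH11 by 1.98 ± 0.31 (adjusted p = 0.00221) and DNAH9 by 1.29 ± 0.27 (adjusted p = 0.00748), though DNAH9 lost its call after quantile normalization. DNAH5 (chromosome 20, 59226991 to 59489350) measured 0.780, 1.10 and 1.14 FPKM in the calves and 1.63, 1.58 and 3.34 FPKM in the bulls. The groups did not overlap, but bull 3 stood apart from the other bulls, and the difference of 0.63 ± 0.24 was not called (adjusted p = 0.0694). After quantile normalization its sign turned, to −0.31.

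The order of levels among these paralogs in bulls was not that of calf 1 and calf 2. Per length, the level of DNAH17 was 31.6, 25.2 and 14.2 times that of DNAH5 in bull 1, bull 2 and bull 3, and 0.502, 0.519 and 0.897 times in the calves. From Ensembl transcripts alone, without the entries assembled from the reads, these ratios were 40.9, 41.5 and 38.8 in the bulls and 0.0530, 0.0805 and 0.0928 in the calves, so bull 3 no longer stood apart. Against DNAH11, DNAH17 stood at 7.17, 6.96 and 7.89 times in the bulls and at 0.323, 0.406 and 5.48 times in the calves. From Ensembl transcripts alone it stood at 7.07, 6.79 and 7.70 times in the bulls and at 0.0333, 0.0633 and 0.336 times in the calves. DNAH17 was thus below DNAH11 in all calves on that measure and above it in calf 3 only by the gene values. DNAH17 exceeded DNAH8 by a factor of 1.73, 1.05 and 1.75 in the bulls, a margin that was small in bull 2.

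All 7 entries of inner arm heavy chains were called higher in bulls, with a median difference of 2.82 on the log2 scale. DNAH2, the largest among them, measured 0.649, 0.871 and 0.0132 FPKM in the calves and 22.5, 18.0 and 25.8 FPKM in the bulls. It rose by 3.97 ± 0.29 (adjusted p = 1.03e-04). DNAH6 rose by 3.37 ± 0.24 and DNAH7 by 3.27 ± 0.17, reaching 12.5 to 14.9 FPKM and 15.4 to 19.1 FPKM in the bulls. DNAH10, which pairs with DNAH2 in one kind of inner arm, rose by 2.16 ± 0.23 and DNAH1 by 1.98 ± 0.16, and the bulls stayed between 5.46 and 6.94 FPKM and between 3.80 and 4.98 FPKM.

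DNAH3 was split in the table. The entry at chromosome 25, 18722951 to 18915484, measured 0.703, 2.49 and 0.767 FPKM in the calves and 6.42, 5.15 and 5.42 FPKM in the bulls, whereas the entry at 18938580 to 18971386 measured 0.161, 0.182 and 0.0170 FPKM and 7.56, 6.27 and 6.89 FPKM. Their gap is 23.1 kb. Both rose, by 1.60 ± 0.32 and 2.82 ± 0.15, and the bulls gave like levels for the 2 entries. Calf 2 was high in the first entry, where assembled transcripts gave 1.78 FPKM and antisense transcripts 0.506 FPKM of its value. The Ensembl transcripts of the first entry summed to 0.145, 0.208 and 0.0113 FPKM in the calves and 6.30, 4.65 and 4.88 FPKM in the bulls, close to the second entry in the calves, and rose by 2.48. The call of the first entry was lost after quantile normalization, with a difference of 0.90.

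**Figure D3:**
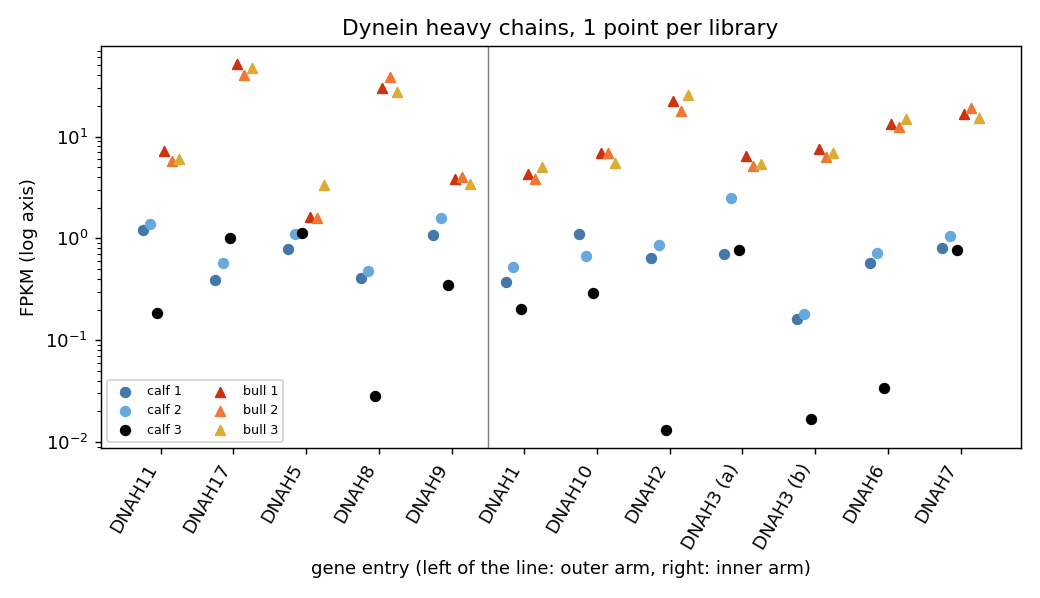
FPKM of the 12 entries of dynein heavy chains on a log axis, 1 point per library, circles for calves and triangles for bulls; DNAH3 (a) and (b) are the entries in order of position. DNAH17 lies at 39.9 to 51.4 FPKM in the bulls and DNAH5 at 1.58 to 3.34, and calf 3 is the lowest point for 9 of the entries, lowest for DNAH2 at 0.0132.

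Intermediate chains hold the outer arm together and bind its heavy chains. DNAI1 measured 0.221, 0.174 and 1.23 FPKM in the calves and 24.5, 18.4 and 20.0 FPKM in the bulls. DNAI2 measured 3.39, 2.21 and 0.0460 FPKM in the calves and 26.6, 27.0 and 20.0 FPKM in the bulls. DNAI1 rose by 3.89 ± 0.30 and DNAI2 by 3.37 ± 0.55. The calf values of DNAI2 came wholly from assembled transcripts in a locus that GPRC5C overlaps, and its Ensembl transcript was listed at 0 in all calves and at 24.4, 24.4 and 19.0 FPKM in the bulls. The Ensembl transcripts of DNAI1 summed to 0.101, 0.0966 and 0.163 FPKM in the calves, and 1.07 FPKM of its value in calf 3 was an assembled transcript. The difference between the 2 genes in calves therefore rests on transcripts outside the annotation. GPRC5C had a mean of 4.90 FPKM in calves and 1.11 FPKM in bulls, and its part in the DNAI2 values was not tested.

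The 3 light chain genes differed. DNALI1, a light intermediate chain of inner arms, rose by 3.08 ± 0.18 (adjusted p = 4.60e-05), from 0.697, 1.03 and 0.758 FPKM in the calves to 15.2, 12.5 and 15.8 FPKM in the bulls. DNAL4 rose by 2.95. DNAL1, a light chain that binds an outer arm motor domain, measured 7.11, 7.34 and 25.7 FPKM in the calves and 20.7, 22.1 and 19.9 FPKM in the bulls. Calf 3 lay above all bulls, calf 1 and calf 2 lay below all bulls, and DNAL1 was not called (0.85 ± 0.48, adjusted p = 0.184). Without calf 3 the difference was 1.41 and was called (adjusted p = 6.99e-05).

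Among dynein assembly factors, cytoplasmic proteins that fold and join dynein subunits before transport into the axoneme, 5 of 6 were called higher. DNAAF1 (chromosome 18, 10448568 to 10469494) had the largest difference of all entries. It measured 1.30, 2.30 and 0.129 FPKM in the calves and 672, 704 and 519 FPKM in the bulls. The difference was 8.26 ± 0.41 (adjusted p = 2.44e-05), and the mean level in bulls lay at the 99.8 percentile of the genes tested. CFAP298 measured 17.6, 21.7 and 22.6 FPKM in the calves and 264, 283 and 252 FPKM in the bulls, so it was already well above the median entry in calves. It rose by 3.63 ± 0.16.

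DNAAF5, a HEAT repeat protein of the same pathway, measured 3.02, 4.33 and 4.03 FPKM in the calves and 5.87, 6.34 and 5.96 FPKM in the bulls. The groups were apart, yet the difference of 0.57 ± 0.18 (adjusted p = 0.0385) stayed under the fold needed for a call. DNAAF1 and DNAAF5 thus lay at opposite ends of this role class.

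Of the 9 radial spoke genes, 8 were tested and 7 called higher, with a median difference of 3.59. RSPH9 and RSPH1, both of the spoke head, had the largest differences on log2(FPKM + 1). The order depended on the setting. Over the alternatives run, RSPH6A reached 6.51, above the highest values of RSPH9 (6.43) and RSPH1 (6.47). RSPH9 measured 0.365, 0.363 and 1.93 FPKM in the calves and 79.0, 57.6 and 61.0 FPKM in the bulls, and rose by 5.23 ± 0.35 (adjusted p = 7.17e-05). RSPH1 measured 0.261, 0.314 and 2.01 FPKM in the calves and 47.6, 75.2 and 60.9 FPKM in the bulls, and rose by 5.16 ± 0.39 (adjusted p = 1.17e-04). Calf 3 was the highest calf in both genes and lay below all bulls.

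RSPH6A and RSPH4A are paralogous spoke head proteins, known from sperm and from airway cilia. RSPH6A measured 0.109, 0.0571 and 0.0727 FPKM in the calves and 17.1, 16.9 and 14.5 FPKM in the bulls, and rose by 3.99 ± 0.16 (adjusted p = 1.19e-05). RSPH4A measured 0.109, 0.0922 and 0.168 FPKM in the calves and 0.135, 0.196 and 0.583 FPKM in the bulls. RSPH4A stayed under an FPKM of 1 in all libraries, its groups overlapped, and it was not tested. The level of RSPH6A was 127, 85.8 and 24.9 times that of RSPH4A in bull 1, bull 2 and bull 3, and 0.999, 0.619 and 0.432 times in calf 1, calf 2 and calf 3, where both genes were near the bottom of the table. From Ensembl transcripts alone the ratios were 113, 80.6 and 23.7 in the bulls and 0.363, 0.137 and 0.433 in the calves. Bull 3 had the smallest ratio among the bulls on both measures.

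RSPH14 measured 0.971, 1.26 and 9.63 FPKM in the calves and 7.88, 9.61 and 11.9 FPKM in the bulls. Calf 3 lay among the bulls, and RSPH14 was not called (1.56 ± 0.67, adjusted p = 0.0935), whereas without calf 3 the difference was 2.34 and was called (adjusted p = 1.03e-04). Of the value in calf 3, 4.15 and 3.92 FPKM belonged to 2 assembled transcripts, TCONS_00120254 and TCONS_00120262, that were at 0.0575 to 0.219 and 0.00791 to 0.109 FPKM in the bulls. Both overlap GNAZ, a G protein gene that shares part of the RSPH14 locus on chromosome 17 (71813569 to 71864813), and TCONS_00120262 ends just past it. GNAZ measured 0.730, 1.58 and 19.4 FPKM in the calves and 2.87, 2.49 and 3.54 FPKM in the bulls. The locus is also overlapped by BCR (mean of 17.9 FPKM in calves and 15.6 in bulls), RAB36 (0.408 and 3.30) and ENSBTAG00000050741 (0.472 and 2.42). The share of RSPH14 reads that came from GNAZ or from these genes was not tested, in calves or in bulls.

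The nexin-dynein regulatory complex links neighbouring doublets. All 3 of its genes that meet the symbol rule were called higher. DRC1, its scaffold, measured 0.923, 2.07 and 0.256 FPKM in the calves and 52.4, 47.0 and 59.0 FPKM in the bulls, and rose by 4.78 ± 0.34 (adjusted p = 9.37e-05). DRC7 measured 0.823, 1.10 and 0.140 FPKM in the calves and 25.6, 32.7 and 31.8 FPKM in the bulls, and rose by 4.24 ± 0.28. DRC3 rose by 4.70. The range of these 3 genes is not that of the complex. Of its genes under other symbols, GAS8 rose by 1.74 and CCDC65 by 4.99.

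In the proteins at the base and tether of the inner arms, 3 of 4 genes were called higher. CFAP43, a tether protein, measured 0.452, 0.537 and 0.123 FPKM in the calves and 19.4, 28.3 and 28.5 FPKM in the bulls, and rose by 4.26 ± 0.24 (adjusted p = 3.65e-05). CFAP73, which forms a complex with CFAP100, measured 1.39, 1.61 and 2.86 FPKM in the calves and 1.21, 1.37 and 1.45 FPKM in the bulls. Its groups overlapped and the difference of −0.30 ± 0.21 was not called (adjusted p = 0.269), while quantile normalization gave −1.21 and a call. CFAP100 rose by 3.30, to 13.4 to 14.9 FPKM in the bulls. The Ensembl transcript of CFAP73 was listed at 0 in every library, so its gene value came wholly from assembled transcripts, and the gene shares 17739 bases with DDX54, which had a mean of 9.32 FPKM in calves and 9.62 FPKM in bulls. Whether reads of DDX54 entered the value of CFAP73 was not tested.

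All 10 entries placed in the central apparatus, the pair of inner microtubules with their projections, were called higher, with differences from 1.85 to 5.31. SPAG17 measured 0.285, 0.431 and 0.0730 FPKM in the calves and 46.2, 46.1 and 54.2 FPKM in the bulls, and rose by 5.31 ± 0.18 (adjusted p = 7.55e-06). SPAG6 measured 3.38, 3.77 and 0.260 FPKM in the calves and 114, 111 and 105 FPKM in the bulls, and rose by 5.22 ± 0.52 (adjusted p = 3.56e-04). SPAG6 had the highest level of the class in bulls, and calf 3 lay far below the other calves. CFAP54 had the smallest difference, 1.85 ± 0.18, with 1.60, 2.10 and 2.14 FPKM in the calves and 8.69, 10.4 and 9.79 FPKM in the bulls.

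Proteins inside the doublet microtubules brace its wall. All 6 entries placed in this class, which leaves out tektins, were called higher. CFAP52 measured 0.371, 0.655 and 0.189 FPKM in the calves and 51.8, 34.3 and 30.2 FPKM in the bulls, and rose by 4.80 ± 0.26 (adjusted p = 3.45e-05). CFAP20, a protein of the junction between the tubules of the doublet, measured 14.1, 17.3 and 19.2 FPKM in the calves and 41.4, 38.0 and 35.0 FPKM in the bulls. CFAP20 thus had a clear level in calves and rose by 1.14 ± 0.17 (adjusted p = 0.00181). Its call was lost with median-of-ratios size factors, just under the fold needed, and after quantile normalization (0.43).

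The 5 tektins, filament proteins that run along the inner wall of the doublet, had the highest median difference of all role classes, 5.81 on the log2 scale, and all 5 were called higher. TEKT1 (chromosome 19, 25055643 to 25071385) measured 1.21, 1.17 and 0.432 FPKM in the calves and 153, 181 and 223 FPKM in the bulls. TEKT2 measured 0.890, 1.33 and 0.679 FPKM in the calves and 139, 126 and 148 FPKM in the bulls. TEKT4 measured 0.0976, 0.0807 and 0.0788 FPKM in the calves and 56.7, 58.8 and 64.0 FPKM in the bulls. These 3 genes rose by 6.60 ± 0.25, 6.15 ± 0.18 and 5.81 ± 0.15, and TEKT4 had the smallest adjusted p of all entries, 3.43e-06.

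TEKT5 measured 0.219, 0.540 and 0 FPKM in the calves and 20.0, 22.3 and 27.0 FPKM in the bulls, and rose by 4.28 ± 0.23. TEKT3 measured 1.42, 1.66 and 1.07 FPKM in the calves and 13.3, 17.4 and 19.5 FPKM in the bulls, and rose by 2.89 ± 0.21. In bulls the order of levels per length was TEKT1, TEKT2, TEKT4, TEKT5 and TEKT3. The FPKM ranges of neighbours in this order did not overlap over the bulls.

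Among the other CFAP genes, 7 of 8 were called higher. CFAP58, a protein of the sperm tail, measured 0.272, 0.352 and 0 FPKM in the calves and 35.2, 39.6 and 38.7 FPKM in the bulls, and rose by 5.02 ± 0.19 (adjusted p = 9.63e-06). CFAP36 measured 20.7, 26.1 and 52.5 FPKM in the calves and 204, 225 and 172 FPKM in the bulls, and rose by 2.66 ± 0.36, with the highest calf level of all entries in all 3 calves. CFAP410, a protein of the ciliary base, measured between 5.05 FPKM (calf 3) and 10.5 FPKM (calf 2) in the calves and 16.7, 16.8 and 15.6 FPKM in the bulls. Its groups were apart, but the difference of 0.92 ± 0.28 (adjusted p = 0.0317) stayed just under the fold needed, and it was called after rescaling to a common sum of FPKM (1.13) and with a pseudocount of 0.1 (1.01).

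In the median, the spread among the bulls was near that of all genes tested, with a lower upper quartile. The coefficient of variation of FPKM over the 3 bulls had a median of 11.4% over the 67 entries tested, with quartiles of 8.11% and 15.5%, beside a median of 13.4% and quartiles of 7.66% and 23.9% over all genes tested. The highest value, 46.0%, was that of DNAH5. SPAG6 varied by 3.88% and CFAP298 by 5.93%, whereas TEKT1 varied by 19.0%, RSPH1 by 22.6% and CFAP52 by 29.6%.

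Calf 3 did not lie uniformly to one side of the other calves. It was the lowest calf in 38 entries and the highest in 23. On log2(FPKM + 1), it lay at least 1 below the mean of calf 1 and calf 2 in SPAG6, DNAI2, CFAP300 and DNAAF1. It lay at least 1 above that mean in RSPH14 (2.33), DNAL1 (1.70), RSPH1 (1.23), CFAP36 (1.14), RSPH9 (1.10) and CFAP100 (1.08). In 9 entries the calf 3 level was under 10% of the mean of calf 1 and calf 2, among them DNAH2 and DNAI2.

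Of the genes listed for ciliated brain epithelium, some were far higher in calf 3 than elsewhere. TTR measured 0, 0.0149 and 47.1 FPKM in the calves and AQP4 1.32, 1.22 and 220 FPKM, whereas TMEM212 was listed at 0 in all calves. Of the 8 genes listed for ependyma and choroid plexus, 7 were in the table, 3 were highest in calf 3, and their summed level was 297, 271 and 314 FPKM in the calves and 61.1 to 68.4 FPKM in the bulls. VIM, which many cell types express, gave 294, 267 and 43.8 FPKM of the calf sums. Without it the other 6 genes summed to 3.09, 3.07 and 271 FPKM in the calves and 11.3, 9.46 and 11.9 FPKM in the bulls. Most of the 271 FPKM was AQP4. KCNJ13 (0.873, 1.07 and 1.06 FPKM in the calves) and FOLR1 (0.0609, 0.0905 and 0.0418 FPKM) did not rise in calf 3. The 6 markers of astrocytes summed to 152, 168 and 2733 FPKM in the calves and 76.7 to 91.4 FPKM in the bulls. The part of brain-type RNA in the axoneme values of calf 3 was not tested. All 61 called entries were also called without that library.

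**Figure D4:**
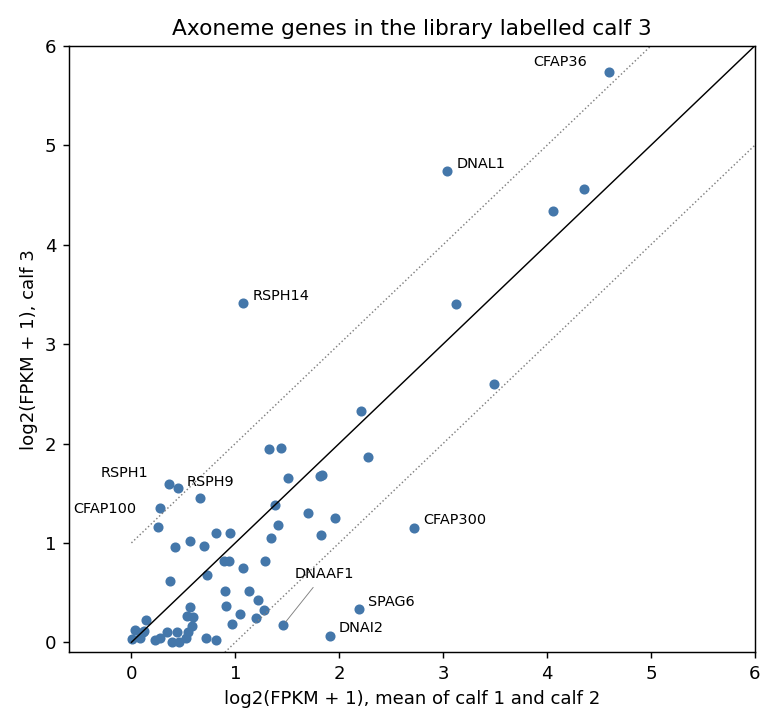
Level of the 68 entries in calf 3 against the mean of calf 1 and calf 2, both as log2(FPKM + 1), with the line of equality and dotted lines 1 above and 1 below it. RSPH14 and DNAL1 lie farthest above the line (2.33 and 1.70), and SPAG6, DNAI2, CFAP300 and DNAAF1 lie below the lower dotted line.

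Transcripts of these genes were called in the same direction as the genes. The table of transcripts lists 223 entries for the 68 genes, 144 of them Ensembl transcripts, 45 assembled from the reads, 29 assembled and named as antisense and 5 assembled and named as overlapping. In all 68 genes the gene value equalled the sum over these entries within 0.001 FPKM in every library, so antisense and overlapping entries are part of the gene values. Of the 95 transcripts tested, 83 were called higher in bulls, none lower and 12 not called, beside 34.8% of all 23212 transcripts called higher and 9.37% called lower. None of the 95 was lower at an unadjusted p below 0.05 with limma.

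Isoforms of a gene could differ in size of change. RSPH1-202 rose by 5.38 and held 97.2% to 98.2% of the gene value in bulls, while RSPH1-201 measured 0.205, 0.0508 and 0.794 FPKM in the calves and 1.31, 1.79 and 1.10 FPKM in the bulls and was not called (0.86 ± 0.23, adjusted p = 0.0227). CFAP36-202 rose by 2.89, whereas CFAP36-201 measured 3.81, 2.19 and 8.29 FPKM in the calves and 4.28, 4.70 and 4.40 FPKM in the bulls (0.06 ± 0.40, adjusted p = 0.910). In DNAH11, the leading isoform differed between bulls: DNAH11-202 measured 3.57 FPKM in bull 1 and 0.0643 and 0.246 FPKM in bull 2 and bull 3, while DNAH11-201 measured 1.88, 4.86 and 5.29 FPKM. Isoforms were not tested against each other.

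For some genes the kind of entry behind the value mattered. Ensembl transcripts held under 50% of the gene value in at least 1 calf in 15 of the 68 entries, and in all 3 calves in 7 of them: CFAP69, CFAP73, CFAP97D1, DNAH17, DNAI2, RSPH14 and the first DNAH3 entry. In DNAH17, the overlapping entry DNAH17-OT1 made up 89.7%, 84.4% and 93.9% of the gene value in the calves and 1.49% to 2.33% in the bulls. The Ensembl transcripts of DNAH17 alone measured 0.0403, 0.0886 and 0.0628 FPKM in the calves and 50.7, 38.9 and 46.5 FPKM in the bulls. Almost all of the small calf value was thus outside the annotated transcripts.

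In CFAP97, the antisense entry CFAP97-AS1 measured 0.0521, 0.106 and 0 FPKM in the calves and 26.6, 32.4 and 49.3 FPKM in the bulls, and rose by 5.09 ± 0.26 (adjusted p = 3.80e-05). The sense transcript CFAP97-201 measured 7.19, 8.08 and 9.59 FPKM in the calves and 77.6, 74.7 and 77.0 FPKM in the bulls, and rose by 3.07 ± 0.16. Antisense entries made up 25.5% to 39.3% of the CFAP97 value in bulls, and the gene value of 104, 107 and 127 FPKM includes them. The libraries kept strand, but whether the counting used it is not given in the sources used here, so reads of the sense and antisense transcripts cannot be told apart.

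The higher DNAH5 value of bull 3 came from entries outside the Ensembl transcripts. Those transcripts summed to 0.761, 1.10 and 0.677 FPKM in the calves and 1.24, 0.938 and 1.20 FPKM in the bulls, so the groups overlapped. Antisense entries measured 0.155, 0.184 and 1.34 FPKM in the bulls and were listed at 0 in the calves. DNAH5-201 alone was not called (0.19 ± 0.15, adjusted p = 0.336). In RSPH14, assembled entries held 78.7% to 88.2% of the value in bulls and 99.2% in calf 3.

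**Figure D5:**
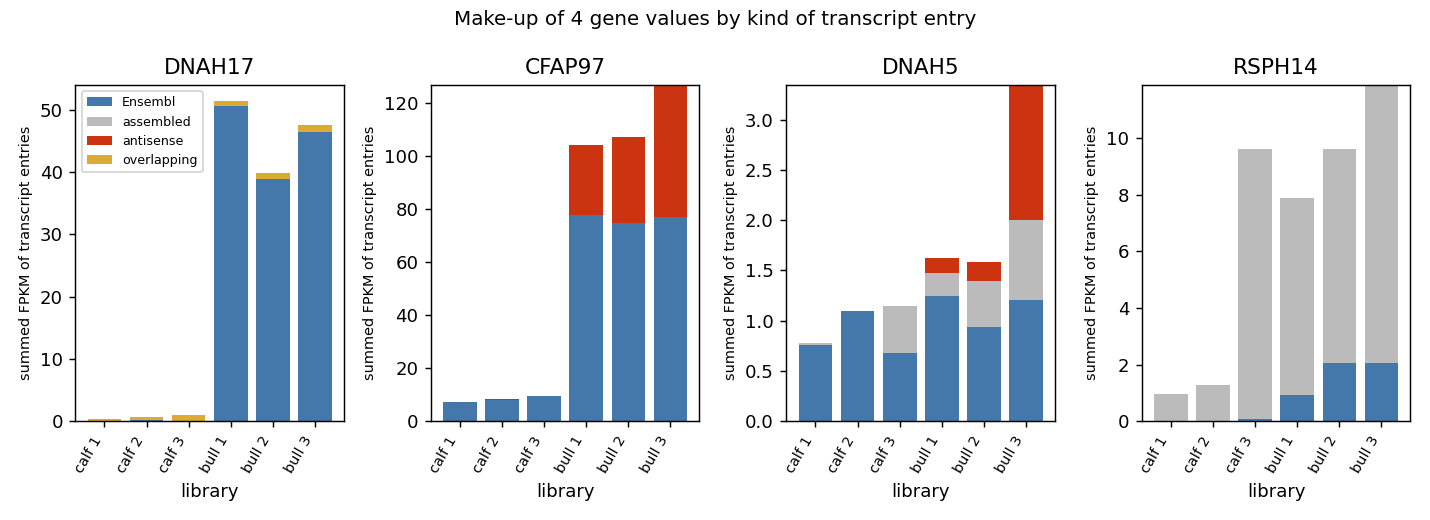
Gene value of DNAH17, CFAP97, DNAH5 and RSPH14 in each library as stacked FPKM of their transcript entries, by kind of entry (Ensembl, assembled, antisense, overlapping). Antisense entries add 26.6 to 49.8 FPKM to CFAP97 in the bulls and 1.34 FPKM to DNAH5 in bull 3, and the RSPH14 value of calf 3 is almost wholly assembled entries.

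Other axoneme genes, listed under symbols outside the rule, were mostly called higher as well. Of 76 listed, 61 were in the table, 59 were tested, 57 were called higher and none lower, with a median difference of 3.56 (limma; 35.7% of all genes called higher). CCDC39 and CCDC40, the ruler that sets the axonemal repeat, rose by 4.18 and 4.30, and the outer arm docking genes CCDC114, CCDC151, ARMC4 and TTC25 by 3.41, 3.96, 2.99 and 3.96. The largest difference was that of ROPN1, which measured 0.294, 0.522 and 0.0345 FPKM in the calves and 361, 355 and 388 FPKM in the bulls. DYNLL2 (−0.03) and EFHC2 (0.91) were tested and not called, and TCTEX1D1 and TCTEX1D4 did not pass the filter. DYNLL2 encodes a light chain that is shared with cytoplasmic dynein and measured 33.8, 38.0 and 111 FPKM in the calves and 55.4, 49.1 and 49.1 FPKM in the bulls.

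Transcription factors known to act on ciliary and spermatid genes were listed as well. Of 20 listed, 18 were tested and 14 were called higher (13 without calf 3), none lower, with a median difference of 2.30, beside 35.7% of all genes called higher and 9.61% lower. RFX2, a factor of ciliary genes in spermatids, measured 6.42, 7.02 and 3.58 FPKM in the calves and 81.0, 87.4 and 87.3 FPKM in the bulls (3.73 ± 0.24). FOXJ1, the main activator of motile cilia genes, measured 0.251, 0.220 and 0.251 FPKM in the calves and 10.8, 11.3 and 8.57 FPKM in the bulls (3.17 ± 0.17). CREM rose by 5.13, SOX30 by 3.37 and RFX3 by 1.30. Of 7 regulators of multiciliated epithelium, 5 were tested and 4 called higher (3 without calf 3): FOXJ1, DEUP1 (3.51), GMNC (2.14) and TP73 (1.08). DEUP1, a protein of centriole amplification, measured 1.89, 1.21 and 0.0512 FPKM in the calves and 19.4, 22.0 and 20.1 FPKM in the bulls. MYB was tested and not called (0.17), and MCIDAS and CCNO stayed under 0.1 FPKM in all libraries.

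The entries were spread over the genome, with 9 on chromosome 19, 6 each on chromosomes 3 and 25, and 5 on chromosome 11. Apart from the 2 entries of DNAH3, the closest neighbours were CFAP43 and CFAP58 on chromosome 26, which lie 90.1 kb apart, and DRC7 and CFAP20 on chromosome 18, which lie 295 kb apart. CFAP43 and CFAP58 both rose, by 4.26 and 5.02, whereas DRC7 rose by 4.24 and CFAP20 by 1.14. Another Ensembl entry overlapped 28 of the 68 loci, among them DNAH17 with PGS1 and RSPH9 with MRPS18A, so fragments there could count for either gene. PGS1 had a mean of 5.95 FPKM in calves and 13.8 FPKM in bulls, below DNAH17 in bulls and above it in calves. All 68 loci overlapped the locus of the same symbol, on the same chromosome, in the RefSeq annotation of the cattle assembly ARS-UCD. No other assembly was compared.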

How the data were processed

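The authors removed low-quality reads, then reads that Bowtie2 matched to ribosomal RNA, and used TopHat2 for mapping and StringTie for transcript assembly. The deposited gene and transcript tables hold 1 FPKM value per library, and the paper, which names Cuffdiff and Ballgown for circRNA levels, does not say which tool made them. They hold no counts, so the depth behind a value is unknown. Sums of FPKM over the table ran from 587066 (calf 3) to 1098715 (calf 2). The paper names UMD3.1.1, whereas the 68 loci overlap the RefSeq loci of the same symbols in ARS-UCD2.0. Positions in UMD3.1.1 were not compared.

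Values were transformed to log2(FPKM + 1). Features with 1 FPKM or more in 3 or more of the 6 libraries entered, and 3 calves were compared with 3 bulls in limma 3.58.1 (R 4.3.3, two-sided, mean-variance trend, Benjamini-Hochberg over 18115 genes or 23212 transcripts). The thresholds for a call were 0.05 for the adjusted p and 1 for the size of the log2 difference. No exact permutation of 3 against 3 animals can give a p below 0.100, so none was used. Each p-value sets a mean difference against the spread between these animals, with the variance of a gene moderated towards that of genes at like levels. With 1 library per animal, variation between animals and between library preparations cannot be told apart. On simulated data built from the tables, 200 features were changed by 2 on the log2 scale. Of the genes, 181 of 200 (90.5%) were recovered, with 2 of 16761 genes tested called falsely. Of the transcripts, 173 of 200 (86.5%) were recovered, with 6 false of 20811. The simulated noise was normal and sized from calf 1, calf 2 and the bulls, and only features with a mean log2(FPKM + 1) above 2 were changed. The spread of calf 3 was left out, so these rates do not describe the fits that include calf 3. Figures used Python 3.11.15 and matplotlib 3.10.9.

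The symbol rule reads no values, but it, the roles, the marker lists and the gene lists were chosen with earlier results of these data known, so no list was tested as a set. Named were all heavy chains and tektins, the largest and smallest difference of each role, entries not called or not tested, the 10 highest in bulls, RSPH4A and RSPH6A, and RSPH14 as the only entry in which calf 3 lay at least 2 (log2) from the other calves. DNAL4, DRC3, CFAP69, CFAP97D1, CFAP100, CFAP300, DNAAF4, the transcripts, DEUP1, GMNC, TP73 and overlapping genes were named after their values were seen. Alternatives covered the pseudocount, filter, scaling, weights, trend, each library left out, a replicate block and, added after seeing the data, gene values rebuilt from kinds of transcript entry.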

Additional observations from a re-analysis of the deposited data

How the results depend on the processing

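Of 67 entries tested, 57 to 63 were called higher under every alternative run, including each library left out, and the extremes were quantile normalization and the fits without calf 3 or with array weights. The median difference was 4.37 with a pseudocount of 0.1 (all genes 0.56) and 2.49 with quantile normalization (all genes −0.26). Quantile normalization also called 1 entry lower, CFAP73 (−1.21, adjusted p = 0.00338), turned DNAH5 to −0.31 (adjusted p = 0.365), and ended the calls of CFAP20, DNAAF4, DNAH9 and the first DNAH3 entry. Rescaling to a common sum gave an all-gene median of 0.61 and median-of-ratios factors 0.31, and under the 3 scalings the median of the entries minus that of all genes was 2.75 to 2.86. The cause of these changes was not tested. With 1 library left out at a time, 61 to 63 entries were called higher and 0 lower, with a median of 3.18 to 3.30. In these fits 33.3% to 37.9% of all genes were called higher and 6.72% to 13.6% lower. Of the other axoneme genes 56 to 57, and of the transcripts 80 to 85, were called higher. DNAL1 and RSPH14 were called without calf 3 or with array weights, and CFAP410 without calf 1 (1.06) or calf 2 (1.09). From Ensembl transcripts alone, 65 entries were tested and 61 called higher, beside 25.6% of all genes in that fit called higher and 11.7% lower. With the replicate number as a block, 61 entries were called higher and 0 lower, beside 35.5% and 9.33% of all genes tested. Deviations from the group means correlated at 0.0277, 0.0246 and 0.0341 for same-numbered animals and at −0.0487 to 0.0221 for the others. With 3 animals per group, these values cannot show whether same-numbered animals share more than a number. Low FPKM values rest on an unknown number of fragments, so the counting error of levels under an FPKM of 1, as of RSPH4A, is unknown.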

Other observations

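Some axoneme genes stood in the table under older symbols. Of 100 RefSeq symbols that meet the rule, 67 were in the table under that symbol and 15 under a synonym that RefSeq gives. Of the others, MAATS1, WDR66 and WDR78, now CFAP91, CFAP251 and DNAI4, were among the other axoneme genes above. All 15 were tested, 13 were called higher in bulls, none lower (limma, 35.7% of all genes called higher), and their median difference was 4.09 on log2(FPKM + 1). C7H19orf71, now TEKTIP1, a partner of tektins, measured 0.489, 0.958 and 2.99 FPKM in the calves and 225, 226 and 267 FPKM in the bulls, a difference of 6.72 ± 0.37. C8H9orf135, now CFAP95, measured 0.123, 0.386 and 0.512 FPKM in the calves and 98.6, 103 and 106 FPKM in the bulls, a difference of 6.28 ± 0.17. WDR63, now DNAI3, an inner arm intermediate chain, differed by 5.80 ± 0.19, and C25H16orf71, now DNAAF8, by 5.62 ± 0.21. The groups did not overlap in these 4 genes.

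The 2 genes not called were assembly factors by their current names. WDR92, now DNAAF10, measured 7.83, 8.94 and 5.01 FPKM in the calves and 7.80, 8.69 and 8.45 FPKM in the bulls, a difference of 0.20 ± 0.23 (adjusted p = 0.485). C13H20orf194, now DNAAF9, measured 5.24, 5.08 and 21.7 FPKM in the calves and 7.32, 7.89 and 5.73 FPKM in the bulls, a difference of −0.26 ± 0.54 (adjusted p = 0.703), with calf 3 above all other libraries. LRRC6, CASC1, PIH1D3 and WDR63 of this set are also among the other axoneme genes described above. These 15 genes were found after the values of the table had been seen.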
